A study of Mus musculus with 28 samples.

Results

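The 10 genes described here encode the water and sodium transport machinery of the collecting duct, the last segment of the kidney tubule. They were the rows Aqp2, Aqp3, Aqp4, Scnn1a, Scnn1b, Scnn1g, Avpr2, Fxyd4, Hsd11b2 and Sgk1 of the kidney raw-count table, 10 of its 30227 gene symbols. All 10 passed the filter on low counts, which left 13502 genes for testing.

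RNA came from 8-week-old female mice of 3 genotypes of the vitamin D receptor gene Vdr: 6 wild-type samples (Vdr+/+, WT), 4 samples without the receptor (Vdr-/-, KO, which the file header also names demay) and 4 labelled Vdr AF2 with the genotype delta AF2 (AF2). AF2 is the activation function by which the receptor binds co-activators, and the design sets signalling without co-activators beside an absent receptor. All 3 groups were fed TD.96348, a diet whose calcium, phosphate and lactose content is high, so no group shows the mutations on ordinary food. The labels give the tissue as kidney cortex and the file header as kidney, and 14 duodenum samples of the same design served only for levels. The labels do not say that each sample was a separate animal, so p-values measure the spread between these samples.

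Principal cells of the collecting duct take up sodium through the epithelial sodium channel ENaC and water through aquaporins, and both are under hormonal control. Aldosterone acts through the mineralocorticoid receptor and raises ENaC activity, in part through the kinase Sgk1. Vasopressin acts through its V2 receptor and cyclic AMP to bring the water channel Aqp2 to the apical membrane. Vitamin D signalling in the kidney is best known for its target genes in the proximal and distal tubule that handle calcium, phosphate and vitamin D itself.

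The libraries read the 3' ends of transcripts, 1 tag per transcript, so levels in CPM, counts scaled to library size, can be set side by side between genes without a correction for length. The kidney libraries held 3725648 to 6492228 counts, with a median of 4870530. Every deposited count was even, and read numbers below are the counts divided by 2. The library codes in the labels fall into 3 runs of consecutive numbers, whose meaning the labels do not give. The first held WT 1 and WT 2, the second WT 3, WT 4 and all KO libraries, and the third WT 5, WT 6 and all AF2 libraries, so the KO and AF2 libraries share no run and run and genotype are told apart only through WT. WT 1 stood apart in immune markers, with 701 CPM of Cd74 against 55.2 to 80.7 in the other WT libraries. AF2 4 lay farthest from its group, with an SD of 0.52 of its log2 deviations over all tested genes against 0.32 to 0.46 in the other libraries. Vdr itself averaged 197 ± 15.7 CPM in WT (SD, n = 6), 17.0 ± 6.44 in KO and 80.9 ± 11.5 in AF2 (SD, n = 4 each). Its log2 fold change against WT was -3.54 ± 0.20 (SE) in KO and -1.29 ± 0.17 in AF2 (edgeR adjusted p = 1.6e-10 and 6.2e-05). AF2 differed from KO by 2.26 ± 0.20 (adjusted p = 1.3e-06). The AF2 libraries thus also held less Vdr transcript than WT. A 3' tag can lie outside a deleted part, so these levels do not show which part of the gene was altered.

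Sgk1, Aqp2 and Scnn1b are shown by the stretch of 250 bases before a RefSeq transcript start (GRCm38.p6, plus strand), because their letters bear on the hormones named above. RefSeq windows of 7 of the 10 genes were searched, 12 windows in all, and Aqp4 was not among these 7 genes. Capitals mark AGAACA or its reverse complement TGTTCT, the core motif of the corticosteroid receptors, and AGGTCA or TGACCT, that of the vitamin D receptor.

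Sgk1 (chr10:21993640-21993889): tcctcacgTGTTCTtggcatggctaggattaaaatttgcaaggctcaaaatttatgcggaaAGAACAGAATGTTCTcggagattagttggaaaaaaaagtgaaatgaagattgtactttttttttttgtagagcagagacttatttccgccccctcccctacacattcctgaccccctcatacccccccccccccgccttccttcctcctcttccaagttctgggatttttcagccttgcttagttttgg

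Aqp2 (chr15:99578806-99579055): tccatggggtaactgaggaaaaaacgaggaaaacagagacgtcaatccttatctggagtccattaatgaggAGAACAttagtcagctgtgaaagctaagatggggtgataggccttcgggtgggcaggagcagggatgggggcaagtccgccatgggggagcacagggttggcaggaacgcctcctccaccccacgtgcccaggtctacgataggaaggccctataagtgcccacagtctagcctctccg

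Scnn1b (chr7:121864788-121865037): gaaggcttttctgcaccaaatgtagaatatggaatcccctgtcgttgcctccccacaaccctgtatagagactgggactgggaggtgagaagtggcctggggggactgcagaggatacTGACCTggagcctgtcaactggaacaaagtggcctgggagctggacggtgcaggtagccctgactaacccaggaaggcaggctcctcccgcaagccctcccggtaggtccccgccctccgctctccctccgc

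In the Sgk1 window the full palindrome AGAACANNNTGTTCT stood at bases -189 to -175 from the start, and it contains the core motif on each strand. Of 32851 promoter windows of the same length, 3 held this palindrome on either strand (0.00913%). The core AGAACA stood in 16.1% of windows and AGGTCA in 14.02%, so the single match in the Aqp2 window (-179 to -174) and the TGACCT in the Scnn1b window (-132 to -127) are common finds. The direct repeat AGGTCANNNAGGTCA, the classical vitamin D receptor element, was in 2 windows of all and in none of the 12 windows of the 7 genes searched. Of the Sgk1 windows not shown, 2 held 1 vitamin D receptor core each and 2 held 1 corticosteroid core each, and the Avpr2 window held 2 corticosteroid cores. These matches describe letters in the windows and not binding.

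Of the 10 genes, Aqp4 was the 1 that passed the test: it was lower in AF2 than in WT kidney, by 2.65-fold. Its call was lost within 1 run of library codes (edgeR adjusted p = 0.207). With the runs as a block it was lost too (0.118), and Scnn1a was called there (0.0297). No gene of the set passed the test in KO against WT or in AF2 against KO. The call required an adjusted p under 0.05 (Benjamini-Hochberg over all 13502 genes) in edgeR's quasi-likelihood test. In KO against WT, 0 of 10 were called beside 0.844% of all genes, and 2 of 10 (Scnn1a and Aqp4) had an unadjusted p under 0.05 beside 10.5% of all genes. None of the 10 had KO and WT libraries without overlap, beside 3.44% of all genes. In AF2 against WT, 1 of 10 was called, downward, beside 2.71% of all genes in either direction and 1.63% downward, and the same pair had an unadjusted p under 0.05 beside 14.5%. In AF2 against KO, 0 of 10 were called beside 0.333% of all genes, and Aqp4 alone had an unadjusted p under 0.05 beside 11.5%. DESeq2 and limma-voom gave the same counts of 0, 1 and 0. The median log2 fold change of the 10 genes was 0.12 in KO against WT, 0.03 in AF2 against WT and -0.14 in AF2 against KO, where all tested genes had medians of -0.0039, 0.0047 and 0.00018. The comparisons with WT share the same WT libraries.

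**Figure D1:**
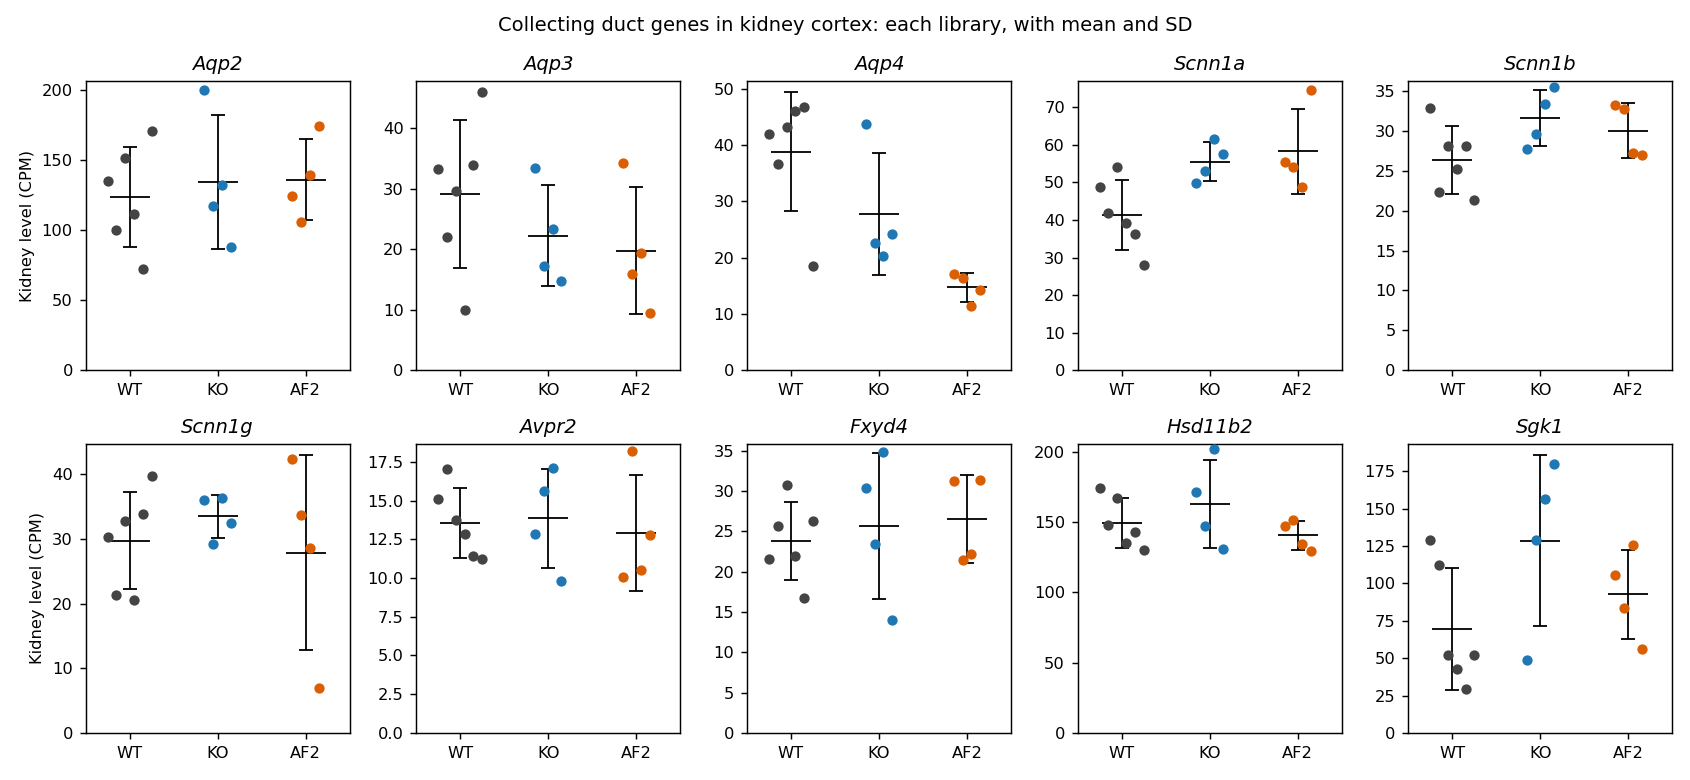
Level of each of the 10 genes in kidney, in CPM on linear axes that start at 0, with 1 point per library and the mean and SD of each genotype as bars (6 WT, 4 KO, 4 AF2). The 4 AF2 libraries lie between 11.3 and 17.1 CPM of Aqp4, below every library of the other genotypes, while the genotypes overlap for the other 9 genes.

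Aqp4 encodes the water channel of the basolateral membrane, through which water leaves principal cells, and in mouse it is also known from the last (S3) segment of the proximal tubule. The gene lies on chromosome 18 (15389496 to 15410982, minus strand, GRCm38). Its level in WT was 18.5 CPM at the lowest, 42.6 at the median and 46.8 at the highest. The KO libraries held 43.8, 22.6, 20.4 and 24.2 CPM and the AF2 libraries 17.1, 16.4, 11.3 and 14.2 CPM. All AF2 libraries were therefore below all WT and KO libraries, but the gap to WT 6 was narrow, since WT 6 (18.5 CPM, 33 reads) lay far below the other WT libraries, all at 36.6 or more. AF2 differed from WT by a log2 fold change of -1.41 ± 0.25 (SE), with a 95% interval from -1.92 to -0.90 and an adjusted p of 0.00147. Such groups without overlap were found for 1 of the 10 genes in AF2 against WT and for the same gene in AF2 against KO, beside 4.73% and 7.16% of all genes in either direction and 2.36% and 3.61% downward. KO held a value between them, at -0.51 ± 0.23 against WT (adjusted p = 0.428), and AF2 differed from KO by -0.90 ± 0.26 (adjusted p = 0.164), so the difference between the mutants was not called. In bulk tissue, fewer cells of a type and less RNA per cell cannot be told apart.

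The fall of Aqp4 kept its call without any 1 of the 14 libraries, at log2 fold changes from -1.54 to -1.30 and adjusted p-values from 1.3e-05 to 0.0166. It was called in 25 of 27 alternative settings. Within the run of codes that holds the AF2 libraries, where WT 5 and WT 6 were the only controls, it was -1.16 ± 0.32 with an adjusted p of 0.207, and with the runs as a block -1.16 ± 0.32 with an adjusted p of 0.118. The point estimate thus stayed below 0 in both, and the call did not hold. An antisense gene, AC133525.2, overlaps 7896 bases of Aqp4, and since the use of strand in counting is not given, reads of this pair cannot be told apart.

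**Figure D2:**
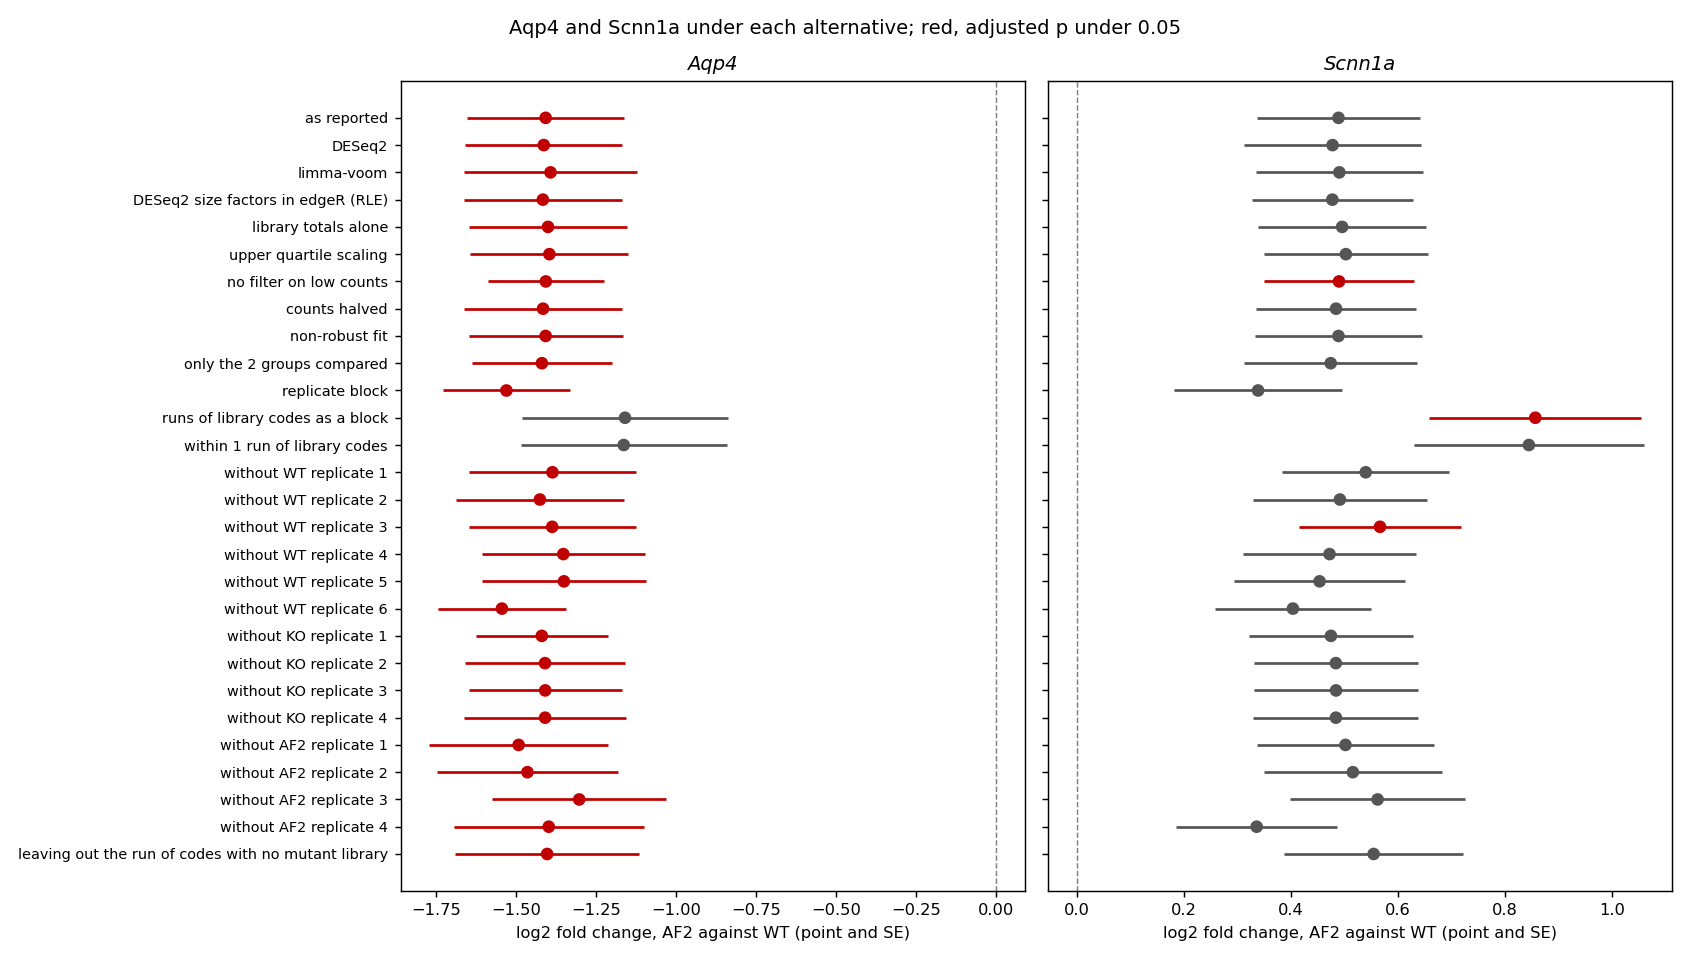
Log2 fold change of Aqp4 (left) and Scnn1a (right) in AF2 against WT under each setting, as point and SE on separate axes, with red for an adjusted p under 0.05. Every Aqp4 point lies below 0, between -1.54 and -1.16, and the grey pair are the settings that use the runs of library codes. Scnn1a lies above 0 throughout and is red in 3 settings.

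Aqp2 encodes the vasopressin-regulated channel of the apical membrane and defines principal cells. It lies on chromosome 15 (99579055 to 99584547, plus strand). WT libraries held 72.5 CPM at the lowest, 123 at the median and 171 at the highest. KO libraries held 200.3, 117, 132 and 87.7 CPM and AF2 libraries 125, 106, 139.7 and 175 CPM. The 3 genotypes covered nearly the same range. The log2 fold change was 0.12 ± 0.26 in KO (95% interval -0.45 to 0.69, adjusted p = 0.922) and 0.14 ± 0.26 in AF2 (-0.43 to 0.71, adjusted p = 0.868) against WT, so changes of up to about these bounds in either direction could not be seen.

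Aqp3, the other basolateral channel, which also passes glycerol, lies on chromosome 4 (41092722 to 41098183, minus strand). It ranged more widely within genotypes. WT libraries held 9.89 CPM at the lowest, 31.4 at the median and 45.9 at the highest, KO libraries 33.5, 17.3, 23.3 and 14.7 CPM and AF2 libraries 34.3, 15.9, 19.3 and 9.47 CPM. The groups overlapped fully, and the estimates of -0.39 ± 0.42 in KO (adjusted p = 0.805) and -0.56 ± 0.43 in AF2 (adjusted p = 0.61) were near the size of their SE. Within a run of codes the KO estimate turned to 0.15 ± 0.52 (adjusted p = 0.966) and the AF2 estimate was -1.03 ± 0.42 (adjusted p = 0.553).

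**Figure D3:**
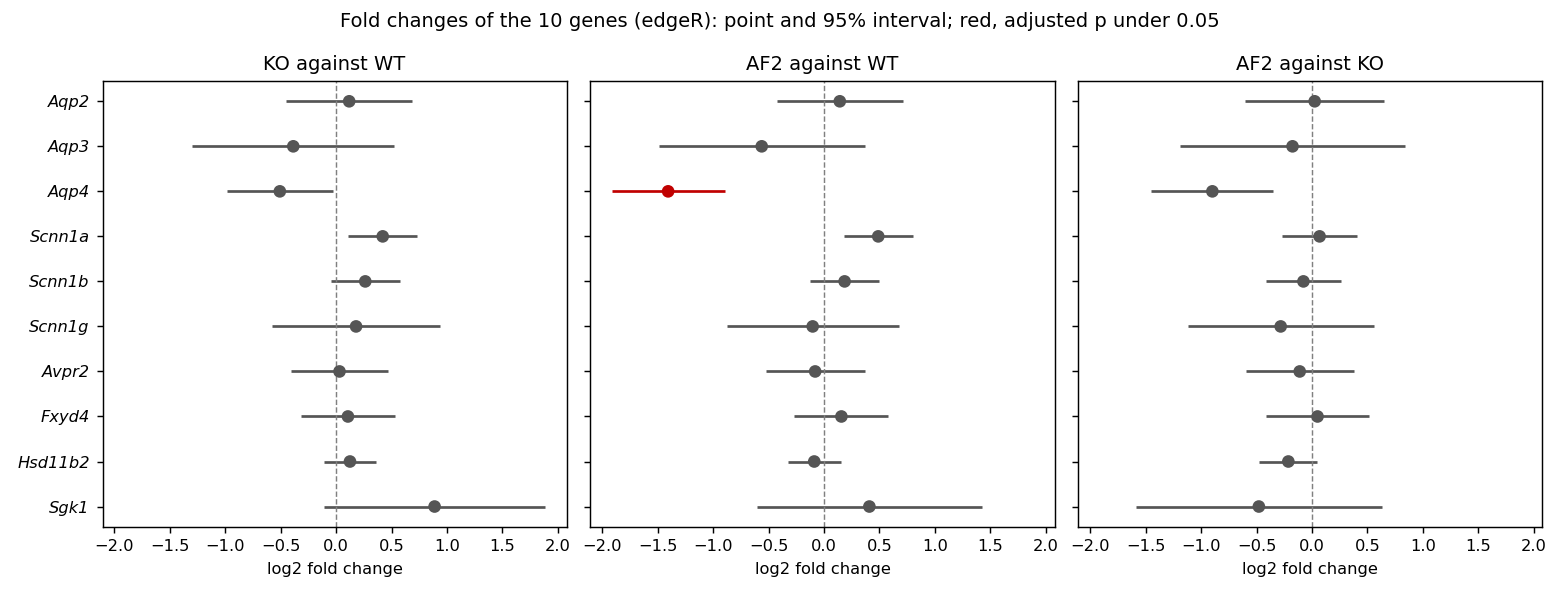
Log2 fold change of the 10 genes in each comparison (KO against WT, AF2 against WT, AF2 against KO), as the edgeR estimate and its 95% interval. Only Aqp4 in AF2 against WT is red (adjusted p under 0.05), and the widest intervals belong to Sgk1 and Aqp3.

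The 3 subunits of ENaC did not pass the test in any comparison. Scnn1a encodes the alpha subunit, the one whose transcript aldosterone induces in kidney. It lies on chromosome 6 (125320659 to 125344943, plus strand). WT libraries held 28.0 CPM at the lowest, 40.6 at the median and 54.2 at the highest, KO libraries 49.9, 53.1, 61.7 and 57.5 CPM, and AF2 libraries 55.5, 54.2, 48.7 and 74.7 CPM. Most mutant libraries were above most WT libraries, with WT 1 and WT 3 inside the mutant range. The log2 fold change was 0.42 ± 0.15 in KO (95% interval 0.11 to 0.73, adjusted p = 0.235) and 0.49 ± 0.15 in AF2 (0.18 to 0.80, adjusted p = 0.0802), and both missed the threshold. The AF2 estimate was called without WT 3 (0.57, adjusted p = 0.0436), without the filter on low counts (0.49, adjusted p = 0.0248) and with the runs of codes as a block (0.86 ± 0.20, adjusted p = 0.0297). Within its own run it was 0.84 ± 0.22 with an adjusted p of 0.131. The KO estimate within its run was 0.25 ± 0.16 with an adjusted p of 0.691, and AF2 and KO differed by 0.07 ± 0.17 (95% interval -0.27 to 0.41, adjusted p = 0.923).

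Scnn1b and Scnn1g encode the beta and gamma subunits and are neighbours on chromosome 7, Scnn1g from 121734479 to 121768475 and Scnn1b from 121865038 to 121918514, both on the plus strand, with 96.6 kb between them. Scnn1b was among the steadiest of the 10 genes, with a highest library at 1.67 times the lowest. WT libraries held 21.3 to 32.8 CPM, KO libraries 27.8 to 35.5 and AF2 libraries 27.0 to 33.3. Its fold changes of 0.26 ± 0.15 in KO (adjusted p = 0.576) and 0.19 ± 0.15 in AF2 (adjusted p = 0.635) were not called, and 39152 of its bases overlap Cog7 on the other strand.

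Scnn1g had the widest range of the set, 6.12 times from lowest to highest, and this rested on a single library. AF2 libraries held 42.4, 33.6, 28.5 and 6.92 CPM, the last being AF2 4 with 19 reads, while WT libraries held 20.5 CPM at the lowest, 31.6 at the median and 39.8 at the highest and KO libraries 36.0, 29.2, 36.3 and 32.5 CPM. AF2 4 alone was low, and in the same library Scnn1a was the highest of all 14. The log2 fold change in AF2 was -0.10 ± 0.36 (adjusted p = 0.933) and turned to 0.23 (adjusted p = 0.693) without AF2 4. In KO it was 0.18 ± 0.35 (adjusted p = 0.908).

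Sgk1, the kinase through which aldosterone and glucocorticoids raise ENaC at the cell surface, had the highest coefficient of variation of the 10 genes over the 14 libraries, 50.8%. The gene lies on chromosome 10 (21882184 to 21999903, plus strand) and is expressed in many cell types. WT libraries held 29.6 CPM at the lowest, 52.1 at the median and 129 at the highest. KO libraries held 48.9, 129, 157 and 179.6 CPM and AF2 libraries 105, 83.6, 126 and 56.1 CPM. In WT the libraries of the first run of codes, WT 1 and WT 2, held 129 and 112 CPM and the other 4 held 29.6 to 52.1. Both mutants overlapped WT. Without this pair KO 1 still lay below WT 3 and WT 6, and the lowest AF2 library, AF2 4 at 56.1 CPM, lay close to WT 6 at 52.1 CPM. KO was higher than WT by 0.89 ± 0.46 on the log2 scale (95% interval -0.11 to 1.89, adjusted p = 0.548) and AF2 by 0.41 ± 0.46 (-0.61 to 1.43, adjusted p = 0.75), neither of which was called. Within a run of codes the estimates were 1.45 ± 0.60 in KO (adjusted p = 0.611) and 1.18 ± 0.36 in AF2 (adjusted p = 0.378). Leaving out WT 1 and WT 2, an alternative chosen after the data had been seen, gave 1.53 ± 0.41 in KO (adjusted p = 0.196) and 1.07 ± 0.41 in AF2 (adjusted p = 0.299), again without a call. WT 1 is the library with the high immune markers, and the part of those cells in its Sgk1 level was not tested.

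Hsd11b2, Avpr2 and Fxyd4 gave no call in any comparison. Hsd11b2 encodes the enzyme that inactivates glucocorticoids in principal cells and so keeps the mineralocorticoid receptor for aldosterone. It lies on chromosome 8 (105518755 to 105523988, plus strand). It had the highest mean of the 10 genes, 151 CPM, and the narrowest range, 1.56 times from 129 CPM in AF2 4 to 202 CPM in KO 3. The means were 149 ± 17.6 CPM in WT libraries, 163 ± 31.1 in KO libraries and 141 ± 10.4 in AF2 libraries (SD, n = 6, 4 and 4). The 95% interval of the log2 fold change ran from -0.11 to 0.36 in KO (adjusted p = 0.763) and from -0.33 to 0.15 in AF2 (adjusted p = 0.788), the narrowest of the set.

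Avpr2 encodes the V2 vasopressin receptor and lies on chromosome X (73892102 to 73895502, plus strand). It had the lowest mean level of the 10 genes, 13.5 CPM, with 20 to 58 reads per library. WT libraries held 11.2 to 17.1 CPM, KO libraries 9.83 to 17.1 and AF2 libraries 10.1 to 18.2, and the fold changes were 0.03 ± 0.22 in KO (adjusted p = 0.978) and -0.08 ± 0.22 in AF2 (adjusted p = 0.912). The annotated L1cam and Arhgap4 overlap it on the other strand, so a share of these few reads may be theirs.

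Fxyd4, the gene of a small membrane protein that tunes the sodium pump of the collecting duct, lies on chromosome 6 (117933559 to 117937692, minus strand). WT libraries held 16.7 to 30.7 CPM, KO libraries 13.99 to 34.8 and AF2 libraries 21.5 to 31.3. Its fold changes were 0.11 ± 0.21 in KO (adjusted p = 0.907) and 0.16 ± 0.21 in AF2 (adjusted p = 0.787).

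In order of mean level over the 14 libraries, Hsd11b2 (151 CPM) and Aqp2 (130.4) led, followed by Sgk1 (93.1) and Scnn1a (50.3). Scnn1g (30.3), Scnn1b (28.9) and Aqp4 (28.8) were level with each other within their SDs of 9.06, 4.26 and 13.4 CPM, and so were Fxyd4 (25.1) and Aqp3 (24.5) with SDs of 6.02 and 10.8. Avpr2 (13.5, SD 2.78) closed the order. Summed over the 10 genes, WT libraries held 452 to 662 CPM, KO libraries 584 to 718 and AF2 libraries 534 to 601.

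How far the 10 genes varied together between libraries of the same genotype was also measured. For each of the 45 pairs, log2 CPM as deviations from the genotype mean was correlated over the 14 libraries, with a permutation test within genotype. The permutations took no account of the runs of codes, so differences between runs can enter r and p. Pearson's r ranged from -0.49 to 0.73 with a median of 0.16, and 30 of 45 pairs were positive. Aqp3 and Scnn1g had r = 0.73 (permutation p = 0.00047, adjusted over the 45 pairs 0.0211) and Spearman's rho = 0.74 (permutation p = 0.00174, adjusted 0.0783), and r was 0.66 without WT 4 and AF2 4, the libraries farthest from the median of Aqp3. It was the only pair with an adjusted p under 0.05, by Pearson's r alone. Aqp2 and Fxyd4 followed with r = 0.72 and rho = 0.67 (adjusted permutation p = 0.248 and 0.475), and r was 0.65 without WT 5 and KO 1. The neighbours Scnn1b and Scnn1g had r = 0.33 and rho = 0.23 (adjusted permutation p = 0.713 and 0.779), and Scnn1a and Scnn1g r = -0.49 and rho = -0.51 (0.713 and 0.763), which was -0.27 without AF2 4.

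**Figure D4:**
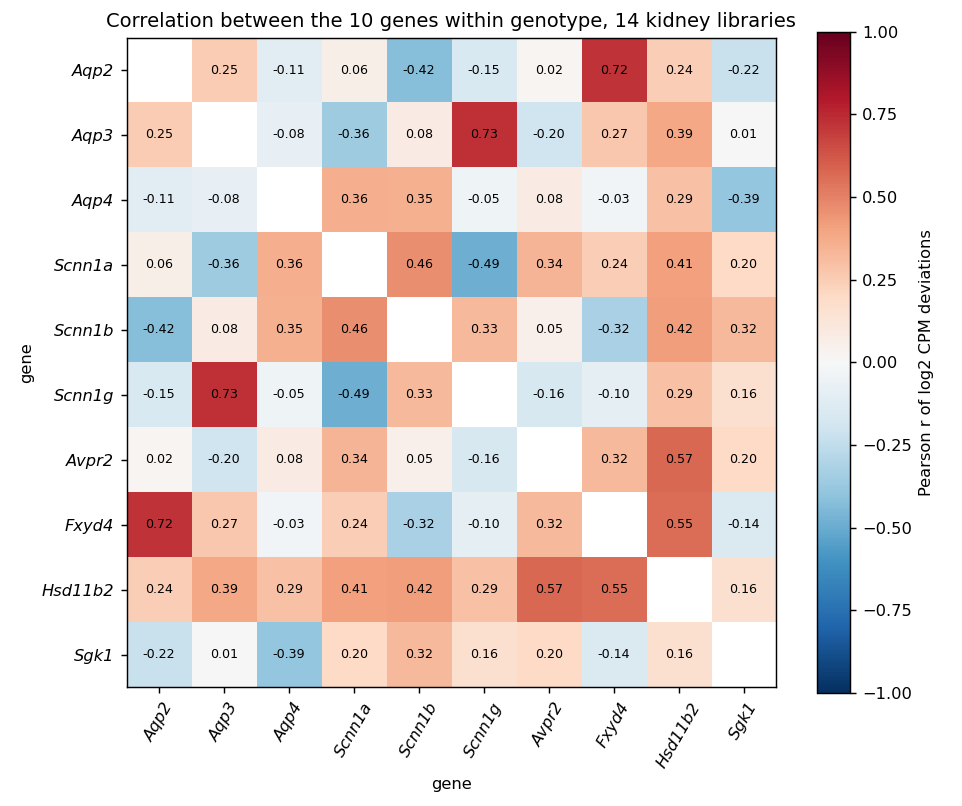
Pearson's r between each pair of the 10 genes over 14 kidney libraries, computed on log2 CPM as deviations from the genotype mean (colour from -1 to 1, value in each cell, diagonal blank). Aqp3 with Scnn1g (0.73) and Aqp2 with Fxyd4 (0.72) are the darkest cells, and the median of the 45 pairs is 0.16.

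Among 9413 other genes with a mean log2 CPM of at least 3, those whose deviations were most like Aqp2 were Kdm4b (r = 0.86), Rabgap1l (0.83), Gstm2 (0.83), Iffo1 (0.82) and C1rl (0.82) over the 14 libraries. Without WT 5 and KO 1 these values were 0.69 to 0.79. For Scnn1g they were Mrps28 (0.96), Rmnd5a (0.95) and Washc3 (0.95), and 0.77 to 0.86 without AF2 1 and AF2 4. For Sgk1 they were Cadm1 (0.90), Nbdy (0.89) and Eef1a1 (0.87), and 0.80 to 0.91 without WT 5 and KO 1. The genes were picked as the highest of 9413, so the values are a description with no test.

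Of 26 tested genes of aldosterone signalling and ENaC regulation, 0 were called in KO against WT, 1 higher in AF2 against WT and 0 in AF2 against KO, with medians of 0.04, -0.02 and -0.07. These counts lie near the shares over all genes of 0.844%, 2.71% and 0.333%. The same 3 shares stand beside the counts of every list below. The gene that rose was Nedd4l, the ubiquitin ligase that removes ENaC from the membrane and is itself held back by Sgk1. It averaged 111 ± 12.8 CPM in WT libraries, 137 ± 14.2 in KO libraries and 168 ± 36.2 in AF2 libraries (log2 fold change 0.60 ± 0.12 in AF2, adjusted p = 0.00329). All 4 AF2 libraries, at 162, 161, 131 and 218 CPM, were above all WT libraries, of which the highest was at 129. Within the AF2 run of codes it was 0.54 ± 0.19 with an adjusted p of 0.417, and with the runs as a block 0.55 ± 0.17 with an adjusted p of 0.144, so the call was lost in both. Nr3c2, the mineralocorticoid receptor, named here for its role after its values had been seen, was near the lower limit of measurement at 5.50 ± 2.29 CPM in WT libraries, 8.50 ± 1.10 in KO libraries and 5.06 ± 3.16 in AF2 libraries, with no call.

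Corticosteroid-induced genes were examined because Sgk1 is one. Of 13 tested, 1 was lower in KO against WT, and 1 higher and 1 lower in AF2 against WT, with medians of 0.06 and 0.13 and 0 calls in AF2 against KO (median 0.17). Errfi1, a feedback inhibitor of the EGF receptor, was the gene that fell in each mutant, from 163 ± 38.8 CPM in WT to 96.7 ± 7.53 in KO (-0.76 ± 0.16, adjusted p = 0.0171) and 95.3 ± 21.0 in AF2 (-0.78 ± 0.16, adjusted p = 0.00512). The KO call was lost without KO 3 (adjusted p = 0.106), without KO 4 (0.0843) and without WT 1 and WT 2 (0.0602), and both were lost with the runs of codes as a block (0.221 and 0.169). Within 1 run the KO call held (-0.59, adjusted p = 0.0132) and the AF2 call did not (-0.51, adjusted p = 0.484). Ndrg2 rose in AF2 from 90.6 ± 10.5 to 133 ± 31.2 CPM (0.55 ± 0.13, adjusted p = 0.0147), and its call was lost without AF2 4 (0.0926), without WT 1 and WT 2 (0.0900), with the runs of codes as a block (0.48, adjusted p = 0.282) and within 1 run (0.47, adjusted p = 0.536).

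Among these 13 genes, the one that followed Sgk1 most closely across libraries was Tsc22d3, the glucocorticoid-induced leucine zipper gene. It had r = 0.75 and rho = 0.75 on deviations from the genotype mean. Adjusted over the 13 genes, the permutation p was 0.076 for r and 0.0753 for rho, and r was 0.65 without WT 5 and KO 1. The clock gene Per1 had r = 0.71 and rho = 0.68 (adjusted permutation p = 0.0801 and 0.0794), with r = 0.72 without the same libraries, Errfi1 r = 0.63 and rho = 0.68 (0.0918 and 0.0794), with 0.82, and Fkbp5, a glucocorticoid receptor co-chaperone, r = 0.54 and rho = 0.51 (0.256 and 0.288), with 0.28. None of the 13 relations passed the correction, the median r was 0.38, and 10 of 13 were positive. WT 1 and WT 2, the first run of codes, were high together for Sgk1 (deviations 1.08 and 0.89), Tsc22d3 (0.50 and 0.39), Per1 (0.36 and 0.94) and Errfi1 (0.43 and 0.37). Fkbp5 (0.15 and -0.15) was not. The permutations took no account of runs, and r was not computed without this pair. Tsc22d3, Per1 and Fkbp5 were singled out after their values had been seen, and none was called in any comparison.

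**Figure D5:**
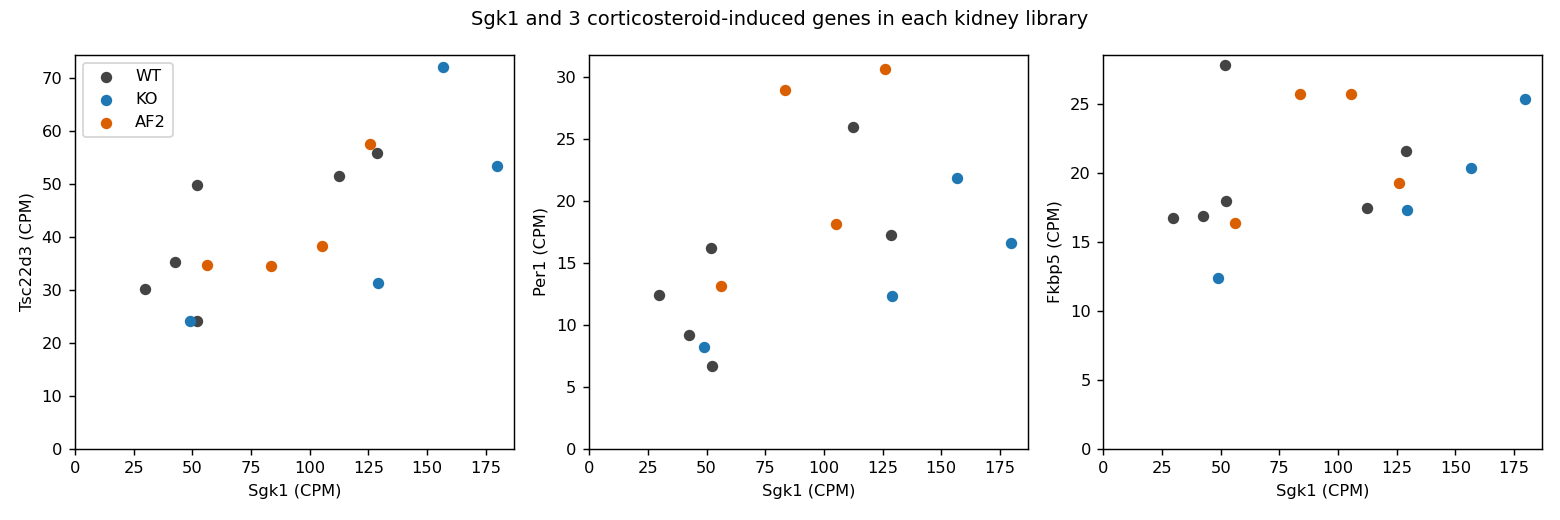
Level of Tsc22d3, Per1 and Fkbp5 against Sgk1 in each kidney library, in CPM on linear axes, with 1 point per library coloured by genotype. KO 3, with 157 CPM of Sgk1, has the highest Tsc22d3 (72.0 CPM) and KO 1, with 48.9 CPM, one of the lowest (24.2 CPM).

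On the water side, 29 genes of vasopressin signalling and Aqp2 traffic gave 0 calls in KO against WT, 2 higher in AF2 against WT and 1 higher in AF2 against KO, with medians of 0.03, 0.09 and 0.09. The genes that rose were the phosphodiesterases Pde4b and Pde4d, which break down cyclic AMP. Pde4b averaged 33.2 ± 2.89 CPM in WT libraries, 42.0 ± 5.47 in KO libraries and 66.7 ± 10.9 in AF2 libraries. The AF2 libraries, at 76.1, 58.4, 56.2 and 76.1 CPM, all exceeded the highest WT library (38.6) and the highest KO library (49.9). The log2 fold change was 1.01 ± 0.13 against WT (adjusted p = 9.72e-06) and 0.67 ± 0.15 against KO (adjusted p = 0.031), and the former was called in all 27 alternative settings, within the run of codes too (1.02 ± 0.20, adjusted p = 0.0293). The latter was called in 17 of 25 alternative settings and lost with the runs as a block (0.74, adjusted p = 0.900). Pde4d rose from 55.0 ± 6.201 to 81.3 ± 11.4 CPM (0.57 ± 0.12, adjusted p = 0.00595), but its call was lost within the run of codes (adjusted p = 0.516) and with the runs as a block (0.280). Both enzymes are widely expressed, and the cells that held these transcripts were not identified.

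Of the other aquaporins and urea transporters, 6 were tested and Aqp9 was at 0 in all libraries. None was called in KO against WT, 1 was higher and 1 lower in AF2 against WT, and none was called in AF2 against KO, with medians of 0.13, 0.37 and 0.25. Aqp6, an intracellular channel of intercalated cells, rose from 44.4 ± 9.39 CPM in WT to 88.9 ± 20.4 in AF2 (1.00 ± 0.17, adjusted p = 0.00072), with 59.7 ± 14.1 in KO, and was called in all 27 alternative settings. Aqp11, a channel of the proximal tubule, fell from 92.4 ± 12.3 to 65.6 ± 11.5 CPM in AF2 (-0.49 ± 0.13, adjusted p = 0.0257), called in 21 of 27 alternative settings and lost without WT 3, WT 4, AF2 1 or AF2 2 (adjusted p = 0.0657, 0.0565, 0.0772 and 0.113). It was lost also with the runs of codes as a block (-0.38, adjusted p = 0.355) and within 1 run (-0.39, adjusted p = 0.598). Of 7 tested genes of the response to tonicity, 0 were called in any comparison. The most abundant of them, the taurine transporter Slc6a6, averaged 364 ± 59.0 CPM in WT libraries, 397 ± 66.0 in KO libraries and 288 ± 79.98 in AF2 libraries, and the inositol transporter Slc5a3 229 ± 33.0, 358 ± 123 and 288 ± 65.3.

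Aqp6 is also a neighbour of Aqp2, starting 16.9 kb beyond its end on chromosome 15. Of the 17 tested genes within 500 kb of Aqp2, Aqp6 was the only one called in AF2 against WT, and Lima1, an actin-binding protein gene, was the only one called in AF2 against KO (0.56 ± 0.12, adjusted p = 0.0171). The Lima1 call was lost without KO 3 (adjusted p = 0.0656) and with the runs of codes as a block (0.78, adjusted p = 0.613). None was called in KO against WT. Vdr lies on the same chromosome, 1.67 Mb before Aqp2, and of 28 tested genes between them 0 were called in any comparison.

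Markers of principal cells outside the 10 genes were examined as well. Of 20, 16 were tested, and the 20 together summed to 1082 to 1325 CPM in WT, 1206 to 1319 in KO and 1180 to 1312 in AF2, so the groups overlapped. Cdh16 (317 to 474 CPM per library), Tfcp2l1 (205 to 326) and Npnt (165 to 300) weighed most in this sum. Whether these transcripts came from principal cells alone was not tested, so the sum does not measure the content of principal cells. Of these 16, 0 were called in KO against WT, 1 higher in AF2 against WT and 0 in AF2 against KO, with medians of 0.08, 0.09 and 0.06. The gene that rose was Rhcg, an ammonia channel that intercalated cells express too, from 45.8 ± 5.33 to 78.8 ± 8.24 CPM in AF2 (0.78 ± 0.14, adjusted p = 0.000961), called in all 27 alternative settings.

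In several lists of markers of other cell types, 1 or more genes were called in AF2. Over all genes, 0.844% were called in KO against WT, 2.71% in AF2 against WT and 0.333% in AF2 against KO. The calls over all genes in AF2 against WT fell from 366 to 121 with the runs of codes as a block and to 91 within 1 run. How the calls of these markers moved in those settings is not given. Of 12 intercalated cell markers, 3 were higher in AF2 against WT (Atp6v0d2 by 0.60, Rhbg by 0.61 and Slc4a1 by 0.81 on the log2 scale), with a median of 0.31 and summed levels of 401 to 526 CPM in WT, 486 to 722 in KO and 548 to 665 in AF2. Of 10 markers of the thick ascending limb, Slc12a1 was higher in KO (0.45) and AF2 (0.43) and Umod in AF2 (0.52). The medians against WT were 0.23 in KO and 0.26 in AF2, each with 6 estimates above 0 and 4 below. The list summed to 2817 to 3558 CPM in WT, 3503 to 4282 in KO and 3913 to 4452 in AF2. Umod (1423 to 2771 CPM per library) and Slc12a1 (691 to 1372) weighed most in this sum, which does not measure the content of this segment. Of 8 tested markers of medulla and thin limb, Jag1 was higher in KO (0.63) and AF2 (0.62), the AF2 median was 0.53 with 8 of 8 estimates above 0, and the list summed to 213 to 362 CPM in WT, 332 to 386 in KO and 342 to 445 in AF2. Of 12 distal convoluted and connecting tubule markers, 0 were called against WT, and Calb1 was lower in AF2 than in KO (-0.69). Among podocyte markers, Synpo was higher in AF2 against WT (0.71).

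Of 12 proximal tubule markers, Slc22a8 (-0.97) and Slc13a3 (-0.70) were lower in AF2 against WT, and the median was -0.33 with 11 of 12 estimates below 0. The list summed to 19342 to 25666 CPM in WT, 19688 to 21811 in KO and 15595 to 19575 in AF2. Kap weighed most in this sum, from 5720 CPM in AF2 3 to 13548 in WT 1. The sum does not measure the content of proximal tubule cells. In KO, Slc22a8 was lower (-0.91) and Miox higher (0.53), with a median of -0.22. Of 7 tested S3 markers, a list added after the values were seen because mouse Aqp4 is known there, Slc5a8 fell in AF2 (-0.55) and Cyp7b1 rose (3.79), and the list summed to 612 to 733 CPM in WT, 603 to 742 in KO and 460 to 713 in AF2. Over the 14 libraries the deviations of Aqp4 followed Slc22a8 (r = 0.66) and Krt8 (r = 0.64) most among these lists and the principal cell markers, as a description with no test. The Aqp4 deviations were largest in WT 6 (-0.99) and KO 1 (0.72). WT 6 was also the lowest WT library for Slc22a8 (706 CPM) and Krt8 (3.36), and KO 1 the highest KO library (668 and 12.4). These r were not computed without WT 6 and KO 1. The part of all these cell types in the fall of Aqp4 was not tested.

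Of the remaining lists, 6 immune markers were tested, Cd79a was at 0 and Csf1r was higher in AF2 (0.71). The immune median in AF2 against WT was -0.19, with 3 estimates above 0 and 3 below, and the WT libraries include WT 1. Endothelial, stromal and blood markers gave 0 calls in any comparison, with Plvap at 111 ± 7.19, 114 ± 7.96 and 107 ± 7.21 CPM and Col1a2 at 144 ± 36.4, 154 ± 31.7 and 125 ± 27.5 in WT, KO and AF2. No urothelial marker was abundant enough to test, and the 8 summed to 1.03 to 7.56 CPM per library.

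Duodenum libraries, which hold no collecting duct, gave the background of these genes in another epithelium. Aqp2 had 0 reads in all 14 libraries, and Avpr2 and Fxyd4 had 3 reads each in total, Scnn1b 14 and Scnn1g 18. Sgk1 was the exception at 56.5 CPM on average (20.3 to 125), while Aqp4 (8.28), Scnn1a (6.73), Hsd11b2 (5.19) and Aqp3 (4.55) were low. The 2 tables were scaled separately, so these levels are set beside those of kidney without a test.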

How the data were processed

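QuantSeq 3' end libraries were prepared from TRIzol-extracted total RNA, per the labels' protocols. The authors deposited raw counts per gene symbol and library, 1 table per tissue, per the file headers. Build mm10 and limma 3.34.9 (role not stated) appear in the submitters' processing notes. For the aligner, the counter and strand use, nothing is given in the sources consulted. All columns were used (0 left out). All counts were even, and tests used them as deposited.

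All 14 kidney libraries entered 1 fit in edgeR 4.0.16 (R 4.3.3) with genotype as the only term, filterByExpr by group, TMM scaling and robust two-sided quasi-likelihood F tests, adjusted by Benjamini-Hochberg over all 13502 genes. Adjusted p-values are from edgeR except where stated. CPM use TMM-adjusted totals. SE was derived from the fold change and F, and 95% intervals use the fit's t quantile. Correlations used log2 CPM with a prior count of 2 as deviations from the genotype mean, with 100000 permutations within genotype, and the design had planned them with no p. Steps were tested on simulated data. No pair of same-group libraries matched within counting error (smallest chi-square per degree of freedom 1.96 over 27 pairs). Alternatives were DESeq2 1.42.0, limma-voom 3.58.1, other scalings, no filter, counts divided by 2, a non-robust fit, only the groups compared, blocks, 1 run of codes, and each library left out. Positions are from GENCODE vM21 (GRCm38), promoters from RefSeq (GRCm38.p6).

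The members and lists were chosen with earlier results of these data known. Genes named are the 10 members, Vdr, the called genes of each list (at most 6), or 2 abundant ones where none was called, the genes nearest in pattern to Aqp2 (5), Scnn1g and Sgk1 (3 each), and called genes near Aqp2. Exceptions are stated. Counts and sums of the podocyte marker list are not reported here.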

Additional observations from a re-analysis of the deposited data

Results flagged for a closer look

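Aqp4 had 1 library apart from its group in both WT and KO. WT 6, at 18.5 CPM, lay below the other WT libraries, whose nearest held 36.6 CPM. KO 1, at 43.8 CPM, lay above the other KO libraries, whose nearest held 24.2 CPM. Each gap exceeded Dixon's 95% critical value for its group size. Of 30 groups examined (10 genes in 3 genotypes) these 2 did so, where chance gives about 1 in 20. WT 6 was also the lowest library for Scnn1a and Scnn1b and the highest for Aqp3, and KO 1 the highest for Aqp2. Without WT 6 the fall of Aqp4 in AF2 was -1.54 on the log2 scale, and without KO 1 the difference of KO from WT was -0.80.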

How the results depend on the processing

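Of 790 member fold changes recomputed under alternatives, 749 kept their direction and side of the threshold, 35 reversed (none of them called), 4 passed the threshold newly and 2 lost it. The number of members called was 0, 1 and 0 (KO against WT, AF2 against WT, AF2 against KO) except without the filter on low counts (2 in AF2 against WT, 1 in AF2 against KO, Aqp4), within 1 run of codes (0 in AF2 against WT) and without WT 3 (2). With runs as a block the count stayed at 1 in AF2 against WT, but the gene called was Scnn1a (adjusted p = 0.0297) and not Aqp4 (0.118). Counts of all genes called, 114, 366 and 45 in that order, became 220 and 151 (KO against WT, AF2 against KO) with DESeq2, 252, 590 and 193 without the filter, 25, 121 and 1 with runs as a block, 73 and 91 within 1 run (KO and AF2 against WT), 177 in KO against WT with only the groups compared, and 65 without WT 1 and WT 2. Leaving out each library in turn gave 38 to 206, 294 to 365 and 22 to 78. The largest moves were without KO 4 (38), without KO 3 (44), without KO 2 (70), without WT 2 (66) and without AF2 4 (206) in KO against WT, and without WT 1 (78), KO 2 (22) and KO 4 (24) in AF2 against KO.

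Reversed estimates were small. In KO against WT they were Aqp3 0.16 and Fxyd4 -0.036 with runs as a block, and 0.15 and -0.036 within 1 run. In AF2 against WT they were Avpr2 0.18 and Hsd11b2 0.043 with the block, 0.17 and 0.034 within 1 run, and Avpr2 0.061 without WT 1 and WT 2. In AF2 against KO they were Scnn1b 0.030 and Avpr2 0.12 with the block, and Aqp2 -0.0012 by library totals alone. With single libraries left out, KO against WT ran from -0.14 to 0.26 for Aqp2, -0.12 to 0.15 for Avpr2, -0.11 to 0.29 for Fxyd4 and -0.019 to 0.20 for Hsd11b2. AF2 against WT ran from -0.0060 to 0.25 for Aqp2, -0.38 to 0.23 for Scnn1g and -0.30 to 0.0070 for Avpr2. AF2 against KO ran from -0.12 to 0.26 for Aqp2, -0.56 to 0.066 for Aqp3, -0.081 to 0.14 for Scnn1a, -0.54 to 0.049 for Scnn1g, -0.31 to 0.032 for Avpr2 and -0.14 to 0.26 for Fxyd4. The cause of these moves was not tested. AF2 against KO could not be fitted within 1 run, since the mutants share none, and leaving out WT 1 and WT 2 was chosen after seeing the data.

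Same-numbered libraries of different genotypes correlated at -0.04 to 0.17, and 5 of 12 correlated best with their own number. No level by chance was computed, so this does not settle whether replicate numbers pair the samples. With the replicate block, 75 genes were called in KO against WT, Aqp4 in AF2 against WT was -1.53 (adjusted p = 3.98e-05) and Avpr2 in KO against WT reversed to -0.084. Reads per library, down to 19 for Scnn1g, limit what can be seen for the less abundant members.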
